A study of Mus musculus with 8 samples.

Results

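The Bcl2 family decides whether the mitochondria of a cell are opened for apoptosis. Its guardians, among them Bcl2, Bcl2l1 (Bcl-xL) and Mcl1, hold the pore-forming effectors Bax and Bak1 in check. The BH3-only proteins Bcl2l11 (Bim), Bid, Bad, Bbc3 (Puma) and Pmaip1 (Noxa) relieve that hold or activate the effectors directly. Mouse embryonic stem (ES) cells are known to commit readily to this pathway, and the balance of the family is set partly by transcription and partly by protein turnover, of which an expression array reads only the first.

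These 10 genes were examined in E14Tg2A.4 cells, a feeder-independent mouse ES cell line, either left untreated in self-renewal or exposed to 1 µM all-trans retinoic acid (RA) for 72 h in medium without leukemia inhibitory factor. RA treatment and withdrawal of the factor therefore went together and cannot be told apart. Each condition had 4 biological replicates, each hybridised in 1 colour to an Agilent mouse array. The probes were selected by name: all non-control probes whose gene name is one of the 10 were taken, which gave 13 probes among 55681 and 10 of 36406 names. Bcl2l1, Mcl1 and Bad have 2 probes each and the others have 1, and a gene is represented by its brightest probe over the 8 arrays unless stated otherwise. All 13 probes were well above background on all 8 arrays.

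After RA the guardians parted. Bcl2 rose 4.95-fold and Mcl1 fell 2.09-fold, while Bcl2l1 was 1.46-fold higher, just short of the 1.5-fold limit. The effector Bax fell 2.09-fold and Bak1 did not pass the test. Among the BH3-only genes Bad rose 1.66-fold, Pmaip1 fell 2.88-fold, and Bcl2l11, Bid and Bbc3 did not pass the test. A gene was called when its adjusted p in limma was below 0.05 and its fold change above 1.5.

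The probes are 60 bases long, and 4 of them are shown because they place the reading within the message. The Bcl2 probe reads the end of the BH1 region of the coding sequence, the Bcl2l11 probe reads the end of its BH3 region across an intron, and the dimmer probes of Bcl2l1 and Bad read coding sequence well away from the brighter probe of the same gene. No capitals are used, since no stretch within a probe is singled out.
Bcl2: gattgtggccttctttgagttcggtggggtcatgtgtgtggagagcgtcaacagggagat
Bcl2l1 (dimmer probe): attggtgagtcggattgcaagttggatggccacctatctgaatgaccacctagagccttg
Bcl2l11: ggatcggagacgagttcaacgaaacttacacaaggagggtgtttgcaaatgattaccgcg
Bad (dimmer probe): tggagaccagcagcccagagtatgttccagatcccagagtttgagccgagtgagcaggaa

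On mm9, the build of the scanner files, the Bcl2 probe lies at chr1:108608970-108609029 on the minus strand. The brighter Bcl2l1 probe lies at chr2:152606404-152606463 and the dimmer one at chr2:152655185-152655244, both on the minus strand and 48722 bases apart. The brighter probe holds the polyadenylation signal AATAAA, as does the brighter probe of Bad at chr19:7026323-7026382. The dimmer Bad probe covers chr19:7016918-7017403, a span of 486 bases for 60 bases of probe, so it crosses at least 1 intron. The Bcl2l11 probe spans chr2:127972893-127983988 and likewise crosses an intron. The Mcl1 probes lie 1253 bases apart at chr3:95466855-95466914 (brighter) and chr3:95465543-95465602. The remaining probes lie at chr7:52717122-52717181 (Bax), chr17:27156807-27156866 (Bak1), chr6:120843464-120843523 (Bid), chr7:16903403-16903462 (Bbc3) and chr18:66625088-66625147 (Pmaip1).

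Values are log2 signals relative to the 75th percentile of the same array, so 0 is a bright probe and a difference of 1 is a doubling in signal. Levels of different probes are not compared with each other, since probes differ in brightness, and differences between probes are used only for how they change between arrays. Between 33629 and 37175 of 59305 spots were well above background on each array and none was saturated. All 10 genes of ES cell identity fell after RA and all 8 genes of the RA response rose, among them Rarb (7.21 ± 0.40, log2 fold change ± SE, limma adjusted p = 5.31e-06) and Cyp26a1, which degrades RA (6.09). With another background correction (normexp) Rarb rose by 5.67 and Cyp26a1 by 4.68, both still called higher. Tdgf1 and Fgf4, a coreceptor and a growth factor of the undifferentiated state, fell by 6.30 and 6.08. RA-treated replicate 2 was the highest RA-treated array for 9 of the 10 identity genes, Klf4 being the exception, with Pou5f1 at 2.05 against -1.16 to 0.39, and the counts without it are given below. Across all probes the median log2 fold change was -0.28 at this scaling and -0.0026 after quantile normalization, and 7196 probes were called higher and 12044 lower against 8152 and 8704. Changes near -0.28 are therefore at the level of a typical probe.

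Markers of primitive endoderm and of fibroblasts moved with RA. All 8 primitive endoderm markers rose, with a summed signal of 8.48 to 23.0 times the 75th percentile on untreated arrays and 58.2 to 76.8 on RA-treated arrays. Of 8 fibroblast markers 6 rose, and their summed signal went from between 1.16 and 2.02 to between 31.6 and 49.7, with 2 markers (Lum and Fap) above background on no untreated array and 1 (Fap) on no RA-treated array. Of 8 neural markers 2 rose and 1 fell, and of 8 mesoderm markers 1 rose and 2 were called lower, although 1 of these, Mixl1, was not well above background on any array. In each of these lists 3 of 8 genes were thus called, near the 36.1% of all names on the array. The summed signal of the neural markers was 6.78 to 11.1 untreated and 14.1 to 15.3 after RA, and that of the mesoderm markers 2.33 to 2.81 and 2.34 to 4.69. The part of these marker changes in the values of the Bcl2 family was not tested, and in bulk RNA fewer cells that express a gene and less of its RNA per cell cannot be told apart.

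**Figure D1:**
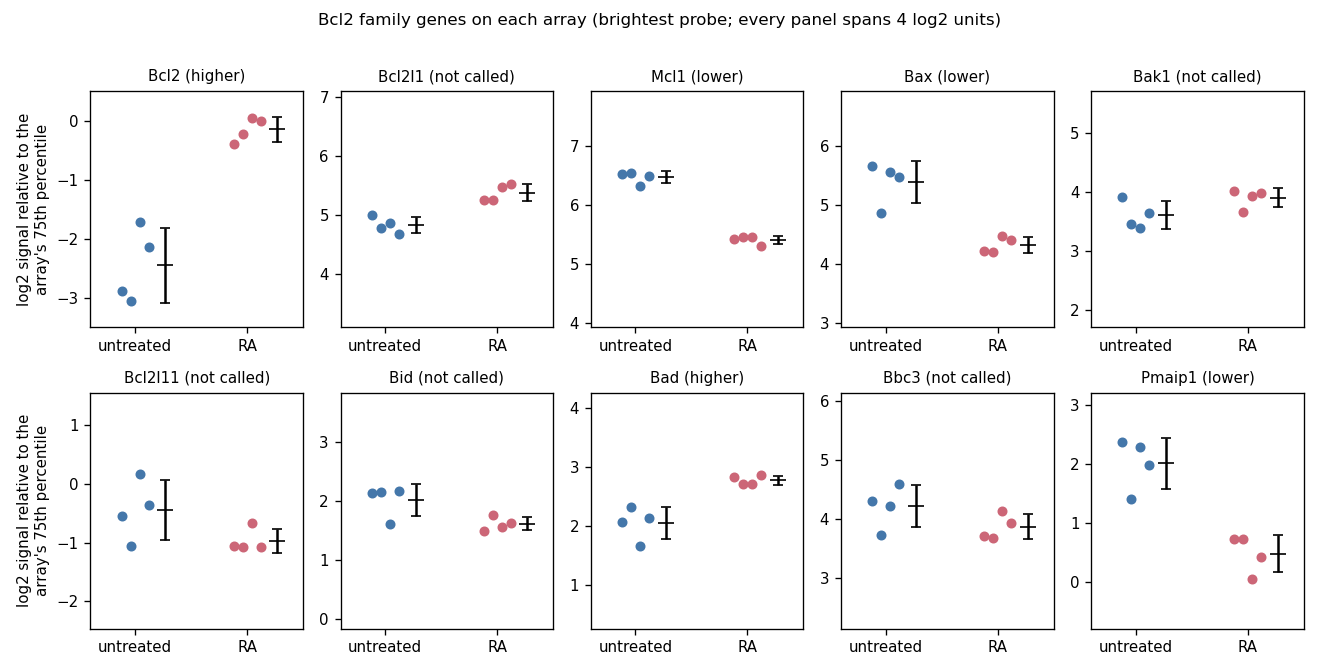
Log2 signal of the 10 Bcl2 family genes on each array, relative to the array's 75th percentile (y axis), for untreated (blue) and RA-treated (red) cells; each point is 1 array and the bar is the mean ± SD of 4 arrays. Bcl2, Bcl2l1 and Bad lie higher on every RA-treated array than on any untreated array, and Mcl1, Bax and Pmaip1 lie lower.

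Bcl2, the founding member of the family and an anti-apoptotic guardian, stood at -2.89, -3.06, -1.73 and -2.15 on the untreated arrays and at -0.40, -0.23, 0.05 and -0.01 on the RA-treated arrays (replicates 1 to 4). The conditions did not overlap, and the 4 RA-treated arrays lay closer together than the untreated ones, of which replicates 1 and 2 were the lowest. The log2 fold change was 2.31 ± 0.30 (SE, n = 4 per condition, limma adjusted p = 0.000353). It stayed between 2.11 and 2.55 when any single array was left out.

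Bcl2l1, whose main product Bcl-xL is the other long-lived guardian of the mitochondrial outer membrane, was read by 2 probes that differed in the size of the change. The brighter probe stood at 5.01, 4.79, 4.87 and 4.67 untreated and at 5.26, 5.25, 5.47 and 5.53 after RA. The 2 conditions were separate but close, and the log2 fold change of 0.55 ± 0.14 (limma adjusted p = 0.0155) was under the limit of 0.585 for a call. The dimmer probe stood at -1.74, -0.94, -0.32 and -0.60 untreated and at 0.27, 0.25, 0.60 and 0.42 after RA, a log2 fold change of 1.28 ± 0.29 (adjusted p = 0.00725), and was called higher. Bcl2l1 was also called higher by its brighter probe after quantile normalization (0.79, limma adjusted p = 0.00149), so that its call, but not its direction, depended on scaling and probe. With the replicate number as a block the brighter probe had an adjusted p of 0.0582 in limma.

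Mcl1, a guardian with a short-lived protein, stood at 6.53, 6.55, 6.32 and 6.50 untreated and at 5.42, 5.46, 5.46 and 5.32 after RA. The lowest untreated array lay well above the highest RA-treated one. On the log2 scale the change was -1.06 ± 0.13 (limma adjusted p = 0.000237) and the second probe gave -1.07 ± 0.19 (adjusted p = 0.00233). After quantile normalization the brighter probe gave a smaller fall of -0.80, still called lower.

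Bax, the effector that moves from the cytosol to mitochondria to form the pore, stood at 5.66, 4.86, 5.56 and 5.47 untreated and at 4.23, 4.19, 4.47 and 4.40 after RA. Untreated replicate 2 was the lowest of its condition and still above all RA-treated arrays. The log2 fold change was -1.06 ± 0.20 (limma adjusted p = 0.00271). After quantile normalization it was -0.84, a smaller fall that was still called lower. Bak1, the effector that resides in the mitochondrial membrane, stood at 3.92, 3.45, 3.39 and 3.64 untreated and at 4.02, 3.67, 3.93 and 3.98 after RA, where the conditions overlapped through untreated replicate 1. Its log2 fold change was 0.30 with a 95% interval of -0.08 to 0.68 (limma adjusted p = 0.193). After quantile normalization Bak1 reached an adjusted p of 0.0154 in limma at a log2 fold change of 0.46, still under the limit for a call.

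Pmaip1, a BH3-only gene whose product binds Mcl1 selectively, had the largest decrease of the 10 genes. It stood at 2.36, 1.41, 2.28 and 1.98 untreated and at 0.72, 0.73, 0.05 and 0.41 after RA. The conditions did not overlap, although untreated replicate 2 was again the lowest of its condition. Its change was -1.53 ± 0.25 on the log2 scale (limma adjusted p = 0.00138).

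Bad, a BH3-only gene whose product binds Bcl2 and Bcl-xL and is held inactive by survival kinases, went the other way. Its brighter probe stood at 2.08, 2.33, 1.67 and 2.15 untreated and at 2.84, 2.71, 2.72 and 2.86 after RA. The lowest RA-treated array lay above the highest untreated one, and the RA-treated arrays spread over a narrower range. On the log2 scale the rise was 0.73 ± 0.17 (limma adjusted p = 0.00819), and the dimmer probe gave 0.67 ± 0.20 (adjusted p = 0.0275). The rise of Bad was the smallest called change of the 10 genes and was not called in a test against 1.5-fold (limma treat, adjusted p = 0.627), nor was the fall of Bax (adjusted p = 0.0973).

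The 3 remaining BH3-only genes had lower means after RA but passed no limit. Bcl2l11, a target of Foxo factors whose product binds all guardians, stood at -0.55, -1.05, 0.17 and -0.36 untreated and at -1.06, -1.07, -0.67 and -1.08 after RA. Untreated replicate 2 lay at the level of the RA-treated arrays. The log2 fold change was -0.52 (95% interval -1.10 to 0.05, limma adjusted p = 0.139), and without untreated replicate 2 it was -0.72 and called lower (limma adjusted p = 0.0337). Bid, which links death receptors to mitochondria once caspase-8 has cut it, stood at 2.13, 2.16, 1.60 and 2.18 untreated and at 1.50, 1.76, 1.56 and 1.63 after RA. Untreated replicate 3 alone reached down to the RA-treated arrays. Its log2 fold change was -0.40 (95% interval -0.79 to -0.02, limma adjusted p = 0.0943). Bbc3, a p53 target that binds all guardians, stood at 4.31, 3.73, 4.22 and 4.60 untreated and at 3.71, 3.68, 4.14 and 3.92 after RA. Its conditions overlapped through untreated replicate 2, and its log2 fold change of -0.35 (95% interval -0.83 to 0.12, limma adjusted p = 0.207) was close to the median of all probes.

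**Figure D2:**
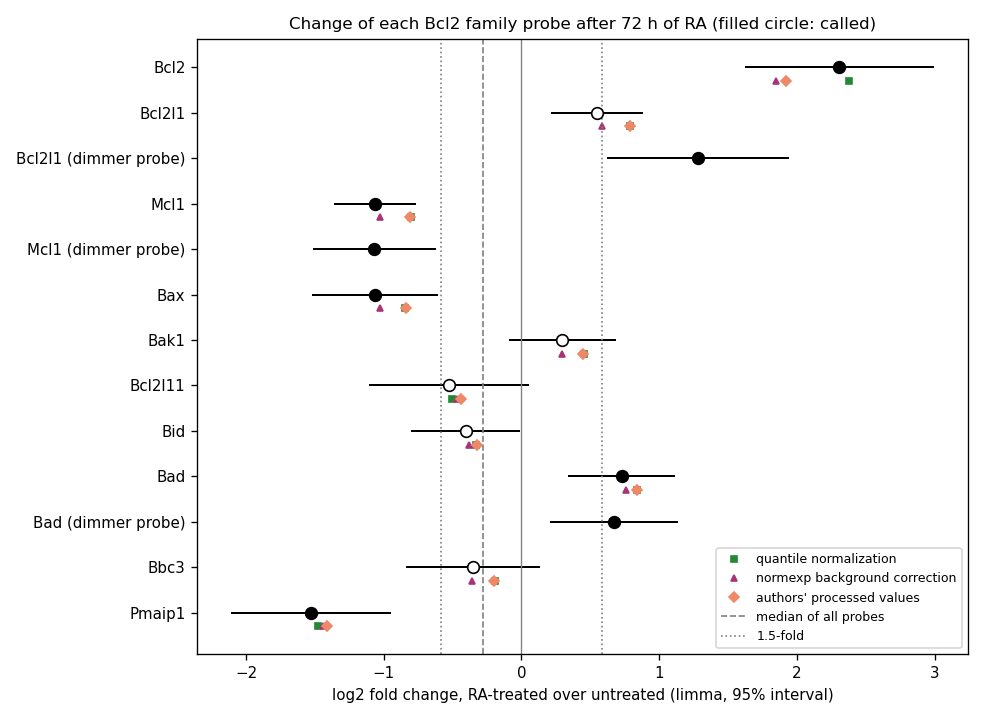
Log2 fold change of the 13 probes of the Bcl2 family, RA-treated over untreated (x axis), with the 95% interval from limma; filled circles were called, and the small symbols give the brightest probe under 3 other ways of processing. Bcl2 at 2.31 and Pmaip1 at -1.53 mark the ends, and the brighter Bcl2l1 probe at 0.55 sits beside the dotted 1.5-fold line.

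Of the 10 genes 5 were called, 2 higher and 3 lower. Among all 36406 names 36.1% were called, 13.9% higher and 22.1% lower, and among the 20404 names that, like the Bcl2 family, were well above background on all 8 arrays 45.6% were called, 18.1% higher and 27.5% lower. The number of family genes called was thus near the background. The conditions did not overlap for 6 of the 10 genes, against 40.5% of all names and 55% of names well above background. The median log2 fold change of the 10 genes was -0.38 and that of the names well above background -0.24. The count did not change when RA-treated replicate 2 was left out, apart from Bcl2l1, which then passed the limit at 0.59 and made 3 called higher.

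Each of the 2 slides carried 2 untreated and 2 RA-treated arrays. All 10 genes had the same direction on both slides. The log2 fold change on slides 1 and 2 was 2.10 and 2.51 for Bcl2, -1.06 on both for Mcl1, -1.30 and -0.83 for Bax, -1.75 and -1.30 for Pmaip1, and 0.98 and 0.48 for Bad. It was 0.46 and 0.63 for Bcl2l1, 0.35 and 0.25 for Bak1, -0.89 and -0.16 for Bcl2l11, -0.31 and -0.50 for Bid, and -0.45 and -0.25 for Bbc3. With the slide as a block the same 5 genes were called, with adjusted p between 0.000578 and 0.0128 in limma.

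In most of the 10 genes the untreated arrays differed more among themselves than the RA-treated arrays. The SD over the 4 arrays was larger untreated in 9 of the 10 genes, with a median of 0.32 untreated and 0.15 after RA. The same held for 70.5% of the names well above background on all arrays, whose median SDs were 0.27 and 0.19. Genes of ES cell identity went the other way, for example Pou5f1 with an SD of 0.30 untreated and 1.42 after RA.

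The next question was whether genes of 1 class changed unequally. The difference between 2 genes on the same array needs no scaling between arrays, and it was compared between the conditions with an exact two-sided permutation test for all 14 pairs within a class. With 4 arrays against 4 the smallest possible p is 0.0286, which became 0.04 after adjustment because 10 of the 14 pairs reached it. Many pairs share a gene and are not independent, and the adjusted p of each rests on the other pairs. Paired by replicate number, 4 pairs of arrays cannot give a p below 0.125 in the exact test, so 0 of the 14 pairs could then pass, although in all 10 that passed unpaired the 4 pairs of arrays had 1 direction. All 3 guardian pairs reached the smallest unpaired p. Bcl2 gained 3.37 on the log2 scale over Mcl1 and 1.76 over Bcl2l1, and Bcl2l1 gained 1.61 over Mcl1, without overlap between the conditions. Bax lost 1.36 to Bak1, again without overlap (exact p = 0.0286, adjusted p = 0.04).

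Among the 10 BH3-only pairs 6 reached the same smallest p. Pmaip1 lost ground to all 4 others, by 2.26 to Bad, 1.18 to Bbc3, 1.12 to Bid and 1.00 to Bcl2l11. Bad gained 1.13 over Bid and 1.25 over Bcl2l11. Its gain of 1.08 over Bbc3 did not pass (exact permutation test, p = 0.0571, adjusted p = 0.0727). Bcl2l11, Bid and Bbc3 overlapped in all 3 pairs, with differences in change of -0.12, -0.17 and -0.05. In all, 10 of 14 pairs did not overlap, where 54.5% of all pairs of names well above background on all 8 arrays did not.

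**Figure D3:**
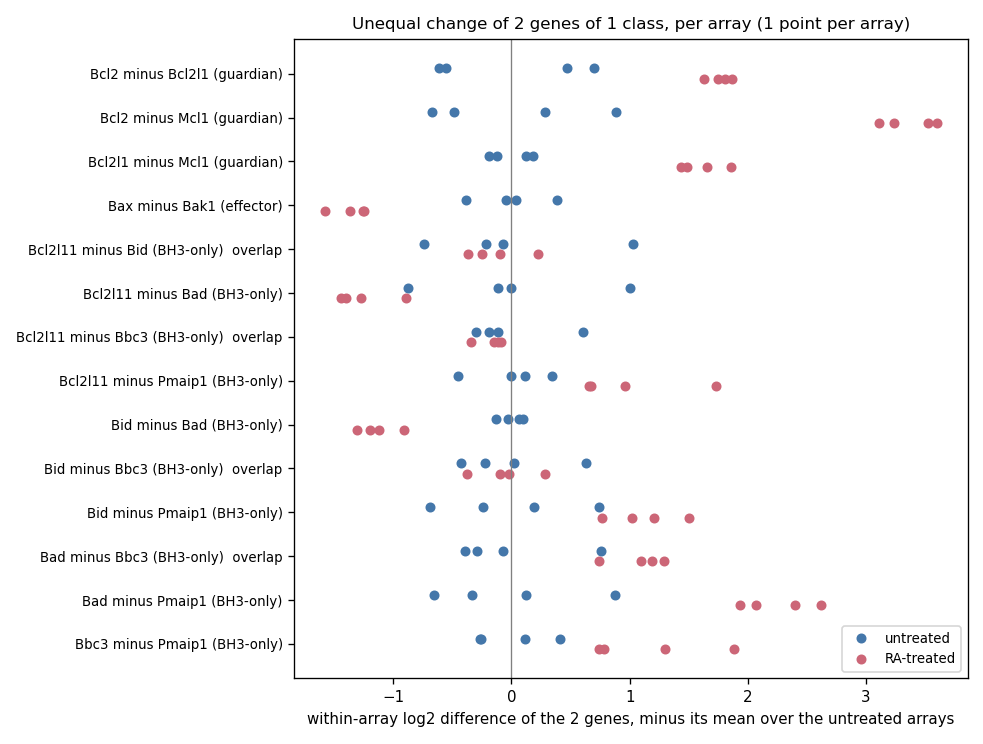
Within-array log2 difference between 2 genes of 1 class on each array, after subtracting its mean over the 4 untreated arrays (x axis), for all 14 pairs; each point is 1 array. The RA-treated arrays (red) lie apart from the untreated arrays (blue) in 10 pairs, farthest for Bcl2 minus Mcl1 at a mean of 3.37, and overlap in 4 BH3-only pairs.

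The rest of the Bcl2 family was read by 14 of 16 listed genes, of which 5 rose and 3 fell after RA, against 13.9% higher and 22.1% lower among all names. Bcl2a1c and Bcl2a1d were well above background on no array. With the slide or the replicate number as a block 4 were called higher. The median log2 fold change of the 14 genes was 0.26. Hrk, a BH3-only gene of neurons, rose from between -1.39 and -0.86 to between -0.15 and 0.75, a log2 fold change of 1.50 ± 0.22 (limma adjusted p = 0.000691). Bcl2l2, which encodes the guardian Bcl-w, rose by 1.05 (adjusted p = 0.000602), while the mean over all its probes gave 0.40 and was not called. Bok, a relative of Bax and Bak1, rose by 0.80. Bcl2l10, a member known from oocytes, was well above background on all untreated arrays and on no RA-treated array, so that it was at least 7.25-fold lower after RA on the processed signal (limma adjusted p = 4.87e-06). This bound depends on the background correction, since normexp, which adds an offset of 50, gave a log2 fold change of -1.48, normexp with quantile normalization -1.28 and the authors' values -1.27, all still called lower. Bcl2l14 fell by 2.07 and Bcl2l15 by 0.98 (adjusted p = 9.42e-05 and 0.0145 in limma). Bcl2l15 was not called in the authors' values (-0.54), after normexp with quantile normalization (-0.54) or with the mean of its probes (-0.42).

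Downstream of the pore, 4 of 19 genes of the mitochondrial machinery rose and 2 fell, where 18.1% and 27.5% of names well above background did, and their median log2 fold change was 0.0058. The executioner caspase Casp6 rose most, from between -0.04 and 0.44 to between 2.16 and 2.55 (2.14 ± 0.16, limma adjusted p = 1.86e-05). Xiap, which inhibits caspases, rose by 1.17 and Apaf1, the scaffold of the apoptosome, by 1.01 (adjusted p = 0.000145 and 0.0135 in limma). Endog, a mitochondrial nuclease, fell by 0.94 and Birc5 (survivin) by 0.59. Birc5 was not called with the replicate number as a block (adjusted p = 0.0521 in limma), nor without untreated replicate 1 or 4 or RA-treated replicate 1, 3 or 4. After quantile normalization 7 genes were called higher and 1 lower, and Birc5 was no longer called.

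Since Bax, Bbc3 and Pmaip1 are p53 target genes, the p53 pathway was set beside them. Of 18 genes 5 rose and 5 fell, with a median of -0.22, beside 18.1% higher and 27.5% lower among names well above background. Trp53 itself fell from between 2.27 and 2.57 to between 0.96 and 1.14, by 1.39 ± 0.13 on the log2 scale (limma adjusted p = 6.52e-05). The nuclease gene Aen and the stress-induced Sesn2, both p53 targets, fell by 1.34 and 1.08 (adjusted p = 0.000282 and 0.00106 in limma). Other p53 targets rose, among them Plk2 by 1.32, Sesn1 by 0.75 and Ccng1 by 0.74 (adjusted p = 0.0118, 0.00307 and 0.0171 in limma). Fas and Perp were called higher too, but untreated replicate 3 reached the RA-treated arrays in both. The number called higher was 2 without RA-treated replicate 1 and 3 without untreated replicate 1, 2 or 4 or RA-treated replicate 3.

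The next list held 11 genes, regulators of BH3-only genes or of Mcl1 turnover together with the stress-response genes Trib3, Ddit4 and Chac1, which are not known as such regulators. In limma 4 of the 11 fell, Trib3 among them, and 0 rose. Among names well above background 27.5% were called lower and 18.1% higher. The median log2 fold change of the 11 genes was -0.52. Ddit3 (CHOP), a stress factor known to induce Bcl2l11 and Bbc3, fell from between 2.65 and 2.93 to between -0.02 and 0.78 (-2.50 ± 0.20, limma adjusted p = 2.44e-05). Its target Trib3 fell by 2.32 and the cell cycle factor E2f1 by 1.33 (adjusted p = 0.00211 and 0.000306 in limma). Of the genes of Mcl1 turnover, the ubiquitin ligases Huwe1 (-0.37, limma adjusted p = 0.0627) and Fbxw7 (-0.52, adjusted p = 0.0359, within 1.5-fold) were lower without overlap but not called, and the deubiquitinase Usp9x (0.11) was not called either. Among 8 death receptor genes 4 rose and 0 fell in limma, against 18.1% higher and 27.5% lower among names well above background, with a median of 0.43. One of the 4 is Fas, counted above among the p53 genes, whose conditions overlapped. The adaptor Fadd had a log2 fold change of -0.53 (limma adjusted p = 0.0237) without overlap between the conditions, but stayed within 1.5-fold and was not called. Casp8, the protease that activates Bid, rose by 1.38 (adjusted p = 0.000624), the adaptor Tradd by 0.68 and the receptor Tnfrsf10b by 0.62. Without untreated replicate 2 the number called higher was 2, and without untreated replicate 3 or RA-treated replicate 3, 1 gene was called lower.

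**Figure D4:**
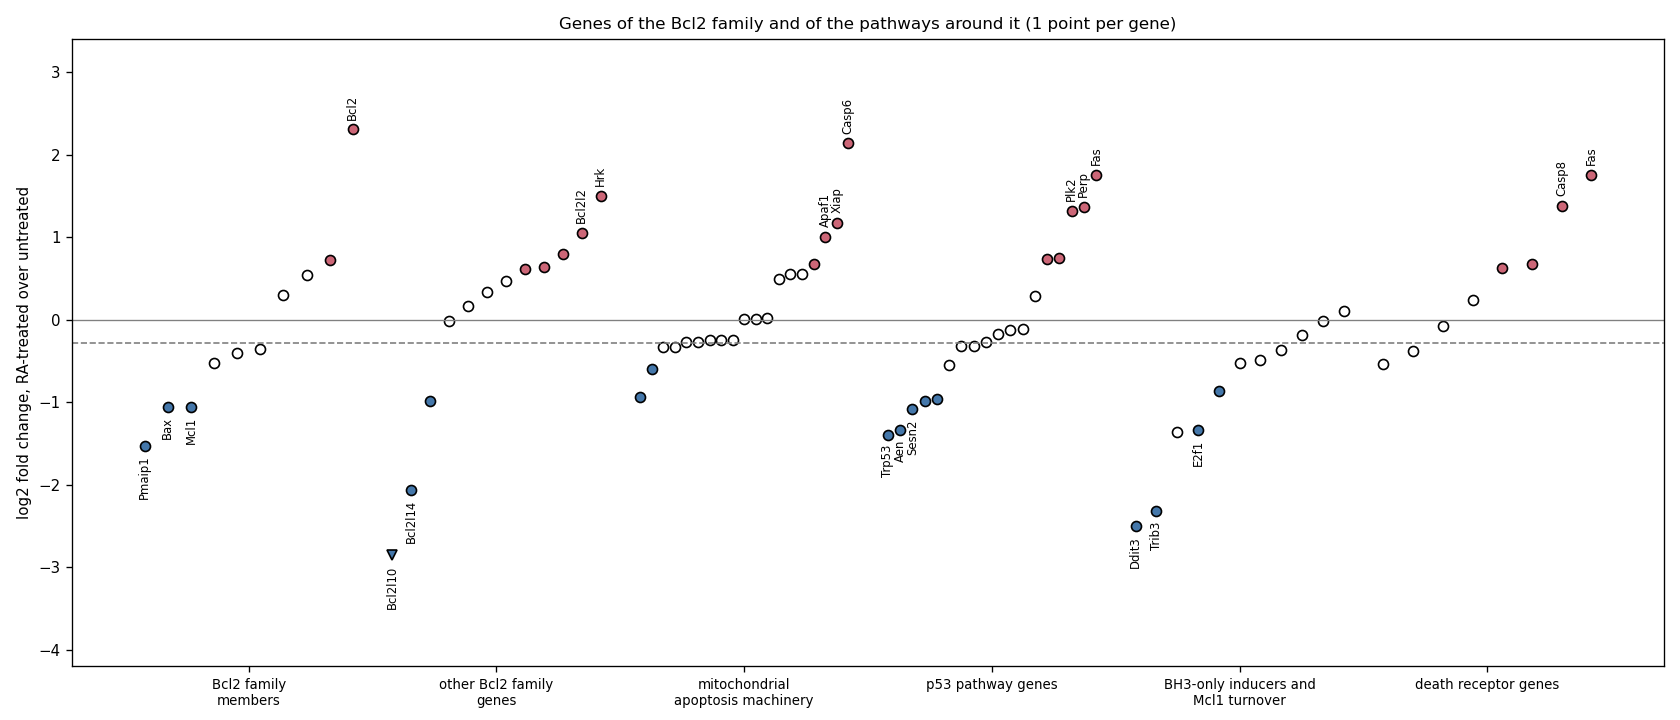
Log2 fold change after RA (y axis) of each gene of the Bcl2 family and of 5 lists around it, 1 point per gene, red if called higher, blue if called lower and white if not called; the triangle is the bound for Bcl2l10 and the dashed line the median of all probes at -0.28. Called genes beyond 1 log2 unit are named, from Bcl2 and Casp6 above to Bcl2l10 and Ddit3 below.

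The promoters were searched for single p53 half-sites, not for a full p53 site, because Bax is a p53 target. Whether its fall is tied to that of Trp53 was not tested. RefSeq windows on GRCm38.p6, from 250 bases before to 50 after the start site, were searched for 9 of the 10 genes in 15 windows, and Pmaip1 was not among them. The p53 half-site was found on either strand in 1 window, that of Bax, and in 8.36% of all 32851 windows. The retinoic acid receptor element (a direct repeat spaced by 5 bases) was found in none of the 15 windows and in 0.0974% of all, and the TATA box TATAAA in none and in 13.6%. The GC box GGGCGG was found on either strand in 10 windows of 7 genes, against 35.7% of all windows. The Bcl2 window and 1 window of Bbc3 held 7 boxes each. Windows of Bbc3 overlapped in part, so that some boxes lay in more than 1 window. These matches describe letters in a short window only. The 250 bases before the start site are shown for both genes, at chr7:45466899-45467148 (minus strand) for Bax with the p53 half-site in capitals and at chr1:106714291-106714540 (minus strand) for Bcl2 with the GC boxes in capitals.
Bax: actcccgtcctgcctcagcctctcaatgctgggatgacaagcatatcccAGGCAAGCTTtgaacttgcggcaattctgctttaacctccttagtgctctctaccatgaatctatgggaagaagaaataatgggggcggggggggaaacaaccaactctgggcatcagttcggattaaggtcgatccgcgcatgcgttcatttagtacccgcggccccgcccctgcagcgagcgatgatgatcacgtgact
Bcl2: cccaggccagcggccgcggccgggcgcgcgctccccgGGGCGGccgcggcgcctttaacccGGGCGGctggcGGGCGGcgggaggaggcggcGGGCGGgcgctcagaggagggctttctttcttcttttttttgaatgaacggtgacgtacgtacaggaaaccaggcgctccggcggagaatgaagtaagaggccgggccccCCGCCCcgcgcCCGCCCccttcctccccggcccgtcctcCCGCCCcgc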

How the data were processed

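Total RNA of 4 untreated and 4 RA-treated cultures (72 h) was amplified with oligo-dT, labelled with Cy3 and hybridised to 1-colour Agilent arrays. The authors deposited the output of Feature Extraction (version 10.7.3.1), whose processed intensity is corrected for background but not scaled between arrays. They also deposited a table of log2 values of the same spots, used here only as an alternative, whose normalization is not given in the sources used here. Since oligo-dT priming starts at the poly(A) tail, probes far from it can read less of the message, which was not tested here.

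In R (version 4.3.3) the 75th percentile over the 59305 non-control spots was subtracted from the log2 intensity of each array. The 3671 control spots and 124 to 145 outlying spots per array were left out and the spots of a probe averaged. The conditions were then compared in limma (version 3.58.1, lmFit followed by eBayes), and p-values were adjusted by Benjamini-Hochberg over all 55681 probes. Fold changes above 1.5 at an adjusted p below 0.05 were called, the thresholds of the study. Where a condition was not well above background on any array, the change is given as a bound: the bright mean against, per array, the higher of the lowest signal well above background and the probe's own. On simulated data of 55640 probes with the spread of these arrays, 157 of 200 probes changed by 2 log2 units were called, and 11 unchanged ones.

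The 10 genes and the gene lists were chosen with earlier results of these data known. The genes named from each list are the called ones without overlap between the conditions, up to 3 with the largest increase and 3 with the largest decrease (2 each for ES identity and RA response). Fas, Perp, Fadd, Mixl1, Lum, Fap, Pou5f1, Klf4, Huwe1, Fbxw7, Usp9x, Bcl2a1c, Bcl2a1d, Ddit4 and Chac1 were added after their values were seen. Pidd1 and Map2 were found under the older names Lrdd and Mtap2, and Bcl2a1a and Bcl2a1b were not analysed here. Replicate numbers were taken to pair the arrays, since the deviations from the condition means of same-numbered arrays correlated at 0.186, 0.189, 0.104 and 0.151 over 27493 probes. Some arrays of different number correlated as much (untreated 1 with RA-treated 4 at 0.142, untreated 4 with RA-treated 3 at 0.130). The comparison was made without this block, and with it as an alternative. Other alternatives were quantile normalization, normexp background correction (offset 50), a filter on dim probes, the slide as a block, leaving out each array, the mean of a gene's probes, a test against 1.5-fold and a 2-fold limit. The number of arrays limits the precision. Figures were drawn with matplotlib (version 3.10.9), and sequences are those of the array design and of RefSeq.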

Additional observations from a re-analysis of the deposited data

Results flagged for a closer look

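Of 110 sets of 4 arrays examined (each named probe in each condition), 3 held an array whose gap to its nearest neighbour took up most of the range, where chance gives about 5.5. Bcl2l11 on RA-treated replicate 3 stood at -0.67 (log2 relative to the 75th percentile), above the other RA-treated arrays at -1.08 to -1.06. Bid on untreated replicate 3 stood at 1.60, below the other untreated arrays at 2.13 to 2.18. Without that array the log2 fold change of Bid was -0.54. Fas, a p53 target that encodes a death receptor, stood at -0.74 on untreated replicate 3, above the other untreated arrays at -3.51 to -3.09. The log2 fold change of Fas was 1.75 with that array and 2.38 without it.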

How the results depend on the processing

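Of 180 repeats of the log2 fold change of a Bcl2 family gene under another setting, the 2-fold limit aside, 0 changed direction. The blocks, the filter on dim probes and the test against 1.5-fold leave the fold change as it is, so these repeats could not change direction. The outcome, called or not called, stayed the same in 169. A call was gained in 9 (Bcl2l1 and, without untreated replicate 2, Bcl2l11) and lost in 2. Both losses came in the test against 1.5-fold (Bax and Bad), where 1 family gene was called higher. The 2-fold limit also left 1 called higher, since Bad is below it. With the replicate numbers as a block the same numbers of family genes were called as without it (2 higher, 3 lower), and the block changed no call of a family gene. It left 1 gene of the mitochondrial machinery called lower (Birc5 was lost) and, like the slide as a block, 4 of the other Bcl2 family genes called higher in place of 5. In the exact paired test over replicate numbers, added after seeing the data, 0 pairs passed, which that design could not allow. Leaving out 1 array gave 2 to 3 family genes higher and 3 to 4 lower, and 10 to 11 pairs without overlap. With the dimmer probes of Bcl2l1, Mcl1 and Bad, chosen after seeing the data, 9 pairs did not overlap. In the lists the machinery had 7 genes higher and 1 lower after quantile normalization, normexp with quantile normalization and in the authors' values, and 1 lower with the mean of a gene's probes. Leaving out 1 array gave it 1 to 2 lower, the p53 pathway 2 to 5 higher and the death receptor genes 2 to 4 higher and 0 to 1 lower. The test against 1.5-fold called 2 higher among the other Bcl2 family genes, 2 higher and 0 lower in the machinery, 0 higher and 3 lower in the p53 pathway and 1 higher among the death receptor genes. The 2-fold limit called 2 higher among the other Bcl2 family genes, 0 lower in the machinery, 3 higher and 3 lower in the p53 pathway and 2 higher among the death receptor genes. Over all probes 6603 were lower after normexp with quantile normalization and 6583 in the authors' values, and the test against 1.5-fold called 4171 higher and 5728 lower. The causes were not tested.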
